A study of Mus musculus with 6 samples.

Results

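The genes described here are Txnip and 7 genes of insulin and AMPK signalling, namely Irs1, Irs2, Insr, Akt2, Pik3r1, Prkaa2 and Tbc1d4, in isolated mouse heart muscle cells. With the 3 annotated features whose exons lie opposite to theirs on the other strand, they make up 11 of the 46078 rows of the deposited count tables. The list was chosen by earlier values of Txnip, Irs1 and Irs2 in the same comparison of Acly-KD with control cells. Their differences between the groups are therefore given as a description. The samples were poly-A RNA libraries of perfused cardiomyocytes in 2 groups, Acly-KD (n = 3) and wildtype control (n = 3). The knockdown used mice in which Cas9 is driven by MyH6, the cardiac alpha myosin heavy chain gene, and the target was Acly, the gene of ATP citrate lyase, which makes cytosolic acetyl-CoA. The sources used here do not say whether the controls carry Cas9, how the knockdown was delivered or how old the mice were. The labels do not tie a library to an animal, so the spread between libraries may in part be technical. In such bulk samples fewer cells of a type and less RNA per cell cannot be told apart.

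Insulin binds its receptor, the product of Insr, which phosphorylates the insulin receptor substrates Irs1 and Irs2. These recruit phosphoinositide 3-kinase through its regulatory subunit, encoded by Pik3r1, and the lipid it makes activates the kinase Akt2. Akt2 and AMPK, whose catalytic alpha subunit of heart and muscle is encoded by Prkaa2, both phosphorylate Tbc1d4, a Rab GTPase-activating protein that otherwise holds glucose transporter vesicles inside the cell. Txnip is an arrestin-like protein that binds thioredoxin and takes glucose transporters off the cell surface. Its gene is switched on by glucose through the Mondo and Mlx factors, and AMPK promotes the breakdown of the protein.

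The counts look strand-swapped, with reads of a transcript under features of the other strand, and are taken so below. The row of Txnip, for example, held 119 reads in all, and the feature opposite to it, Gm15441, held 50183. The kit keeps strand, and how strand was set in counting is not stated in the sources used here. What each gene could show therefore depended on whether an annotated feature lies opposite to its exons, which held for 3 of the 8 genes. Txnip (chr3:96557957-96561883, plus strand, mm10) shares 606 exonic bases with Gm15441, an annotated antisense RNA. These are 19.4% of the exonic length of Txnip and 36.2% of that of Gm15441, and of the 606 bases 279 lie in the 5′ untranslated part of Txnip, while stretches of 162 and 165 bases are coding. Irs1 (chr1:82233101-82291416, minus strand) shares 2822 bases of its 3′ untranslated region with Gm9747, a predicted gene that lies within it over its whole length. Irs2 (chr8:10984681-11008458, minus strand) shares 162 coding bases near its 5′ end with 9530052E02Rik, which is 8.76% of the exons of that RNA. The other 5 genes have no exon of another gene opposite to theirs.

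**Figure D1:**
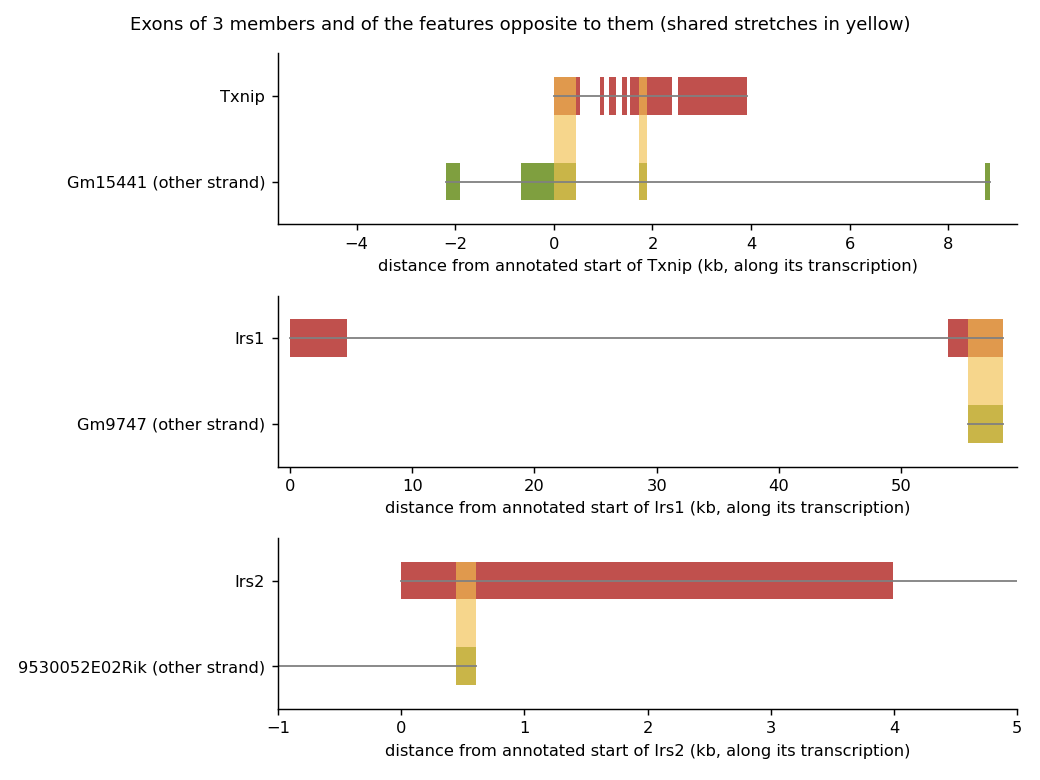
Exons (boxes) of Txnip, Irs1 and Irs2 and of the feature opposite to each, by distance in kb from the annotated start of the member, along its direction of transcription. Yellow marks the shared stretches, which cover 606 bases at Txnip, 2822 at Irs1 and 162 at Irs2; the remaining exons of 9530052E02Rik and the last exon of Irs2 lie outside the window drawn.

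A coding stretch through which Txnip was read, the longer of its pair, and that of Irs2 are shown because the strand alone decides there which of a pair of genes receives a read. Each is written 5′ to 3′ in the sense of the member, from the GENCODE M21 transcripts of the mm10 build, and the capitals mark the bases shared with Gm15441 (Txnip, chr3:96559589-96559845, plus strand) or with 9530052E02Rik (Irs2, chr8:11007820-11008041, minus strand).
Txnip: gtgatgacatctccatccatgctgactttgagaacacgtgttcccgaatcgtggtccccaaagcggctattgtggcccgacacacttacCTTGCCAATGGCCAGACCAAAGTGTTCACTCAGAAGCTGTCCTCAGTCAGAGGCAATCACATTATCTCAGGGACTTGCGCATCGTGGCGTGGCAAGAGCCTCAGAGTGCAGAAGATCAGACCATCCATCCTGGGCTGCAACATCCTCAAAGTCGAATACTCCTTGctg
Irs2: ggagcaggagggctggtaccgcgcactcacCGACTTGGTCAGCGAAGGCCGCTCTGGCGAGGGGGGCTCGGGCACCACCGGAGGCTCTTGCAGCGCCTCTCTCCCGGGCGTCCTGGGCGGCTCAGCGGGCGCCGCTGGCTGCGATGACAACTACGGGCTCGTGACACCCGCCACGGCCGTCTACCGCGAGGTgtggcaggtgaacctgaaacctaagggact

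Reads counted in features numbered 271463 to 814765 per library, 2.81% to 3.07% of the uniquely aligned reads. The counts were read as deposited and in a reading of mRNA, in which a feature's counts go to the gene opposite to it, with 140295 to 445228 reads per library. Acly itself had 0, 0 and 0 reads in Acly-KD 1 to 3 and 1, 5 and 6 in control 1 to 3, all on the wrong strand. If 3 counts are put in place of the 0 reads of the Acly-KD group, Acly comes out 4.10-fold lower there. This value rests on the assumed counts and takes the few control reads as exact. It is therefore neither a measured fold nor a lower bound. Reads counted opposite to Xist, a transcript of female cells, are taken as Xist itself in the reading of mRNA. They numbered 149 and 137 in control 2 and 3 and 0 in the other 4 libraries. By this reading control 2 and 3 hold female cells and no Acly-KD library shows them. Sex and group therefore partly coincide and cannot be fully told apart. Of the defining markers of heart muscle 8 of 8 were tested at their own loci, as wrong-strand reads. All 8 were below zero (median -0.39 on the log2 scale, 0 called), against 54.4% of all features tested as deposited (median -0.04). The summed level of the 8 markers was 4128, 8452 and 14839 CPM in Acly-KD 1 to 3, against 14000, 12785 and 10795 CPM in control 1 to 3. Acly-KD 1 was lowest and the groups overlapped. Myl2, the one of these markers tested in the reading of mRNA, had a log2 fold change of 0.11 (SE 0.14). The part of these levels in the members' values was not tested. Of other cell types, 3 of 8 endothelial markers, 4 of 7 of pericytes and smooth muscle, 2 of 7 of macrophages and other blood cells and 0 of 8 of fibroblasts reached the test at their own loci, and all 4 adipocyte markers were listed at 0. Below zero were 2 of the 3 endothelial markers, 2 of the 4 of pericytes and smooth muscle and 2 of the 2 of blood cells.

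Txnip had the lower values in all 3 Acly-KD libraries. The feature opposite to it held 8084, 4916 and 9264 reads in Acly-KD 1 to 3, against 3774, 12888 and 11257 reads in control 1 to 3. Scaled to library size in the reading of mRNA, Txnip read 22575, 22409 and 23416 CPM (reads per 1000000, normalized) in Acly-KD 1 to 3, against 26848, 29926 and 30690 CPM in control 1 to 3. The groups did not overlap, as for 6.61% of all genes tested with Acly-KD lower, and the coefficient of variation was 2.37% among Acly-KD libraries and 6.98% among controls. The log2 fold change was -0.35 (SE 0.09), a ratio of 0.782. Control 1, the lowest control, is also the only control without reads opposite to Xist. With a term for control 2 and 3 the log2 fold change of Txnip was -0.24, which rests on control 1 alone. Txnip made up 2.23% to 2.93% of a library's reads in the reading of mRNA and ranked 7 of the 1453 genes tested there by mean CPM. That reading holds only genes with a suitable feature opposite to them, so these are not shares or ranks among all mRNA of the cells. Per 1000000 uniquely aligned reads, a scale that does not rest on the counted features, the values were 338, 313 and 355 in Acly-KD 1 to 3, against 415, 481 and 459 in control 1 to 3.

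Reads on the strand of Gm15441, which these tables hold in the row of Txnip itself, were few. They numbered 11, 8 and 31 in Acly-KD 1 to 3, against 16, 41 and 12 in control 1 to 3, and the groups overlapped. As a share of the reads of the pair they ran from 0.136% (95% exact interval 0.0679% to 0.243%) to 0.334% (0.227% to 0.473%) in Acly-KD, against 0.106% (0.055% to 0.186%) to 0.422% (0.241% to 0.685%) in control. These intervals cover counting error only. The row of Txnip spans all 3123 of its exonic bases, whereas Gm15441 shares 606 of them. The percentages are therefore not strand shares over a common stretch. Gm15441 is known from mouse liver, as an RNA that lowers Txnip. Its own transcript and stray reads of the wrong strand cannot be told apart here.

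Irs1, the insulin receptor substrate read through Gm9747, had 463, 215 and 501 reads in Acly-KD 1 to 3, against 166, 811 and 696 reads in control 1 to 3. In the reading of mRNA these were 1293, 980 and 1266 CPM in Acly-KD 1 to 3, against 1181, 1883 and 1898 CPM in control 1 to 3. Control 2 and 3 were above every Acly-KD library, and control 1 lay among them, so the groups overlapped. The log2 fold change was -0.50 (SE 0.17). Control 2 and 3 are also the libraries with reads opposite to Xist, and with a term for them the log2 fold change of Irs1 was 0.00 (SE 0.19), which rests on control 1 alone. At its own locus Irs1 held 4, 2 and 4 reads in Acly-KD 1 to 3, against 2, 16 and 13 in control 1 to 3.

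Irs2, the other receptor substrate, rested on few reads: 31, 19 and 11 in Acly-KD 1 to 3, against 38, 95 and 32 in control 1 to 3. In the reading of mRNA it had 86.6, 86.6 and 27.8 CPM in Acly-KD 1 to 3, against 270, 221 and 87.2 CPM in control 1 to 3. The highest Acly-KD library and control 3 were almost level, and with the scale of the counts as deposited they crossed, at 47.6 CPM in Acly-KD 1, against 46.0 CPM in control 3. The log2 fold change was -1.51 (SE 0.51), and without Acly-KD replicate 3 it was -1.08. The spread within a group was wide, with a coefficient of variation of 50.7% in Acly-KD and 49.1% in control.

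**Figure D2:**
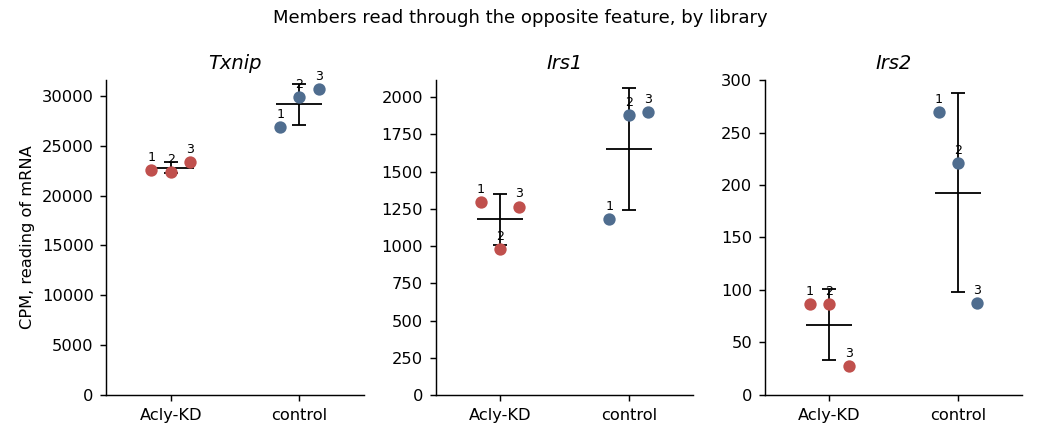
CPM in the reading of mRNA for Txnip, Irs1 and Irs2, with Acly-KD on the left and control on the right of each panel; points are libraries, numbered by replicate, and bars give the mean and SD of 3 libraries. Txnip groups are apart, Irs1 of control 1 lies at 1181 CPM among the Acly-KD libraries, and Irs2 of control 3 lies at 87.2 CPM, just above the highest Acly-KD library at 86.6 CPM.

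Of the 3 members that could be read as mRNA, 0 were called by edgeR's quasi-likelihood test at an adjusted p of 0.05, where 0.413% of the 1453 genes tested were called. At an unadjusted p under 0.05 there were 3 of 3, against 8.60% of all genes. DESeq2 called 0 of the 3, and 4 of all 1453 genes. With limma-voom 1 of the 3 was called, Txnip, and 7 of all 1453 genes. Groups did not overlap with Acly-KD lower for 2 of the 3, against 6.61% of all genes. These members were chosen with the same contrast known, so nothing is read from these counts. As deposited, 6 of the 11 rows passed the filter on low counts and 0 were called, as were 0 of 2952 features (0.0%). At an unadjusted p under 0.05 there were 3 of these 6 rows and 180 of all features, and DESeq2 and limma-voom also called 0 of the 6.

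**Figure D3:**
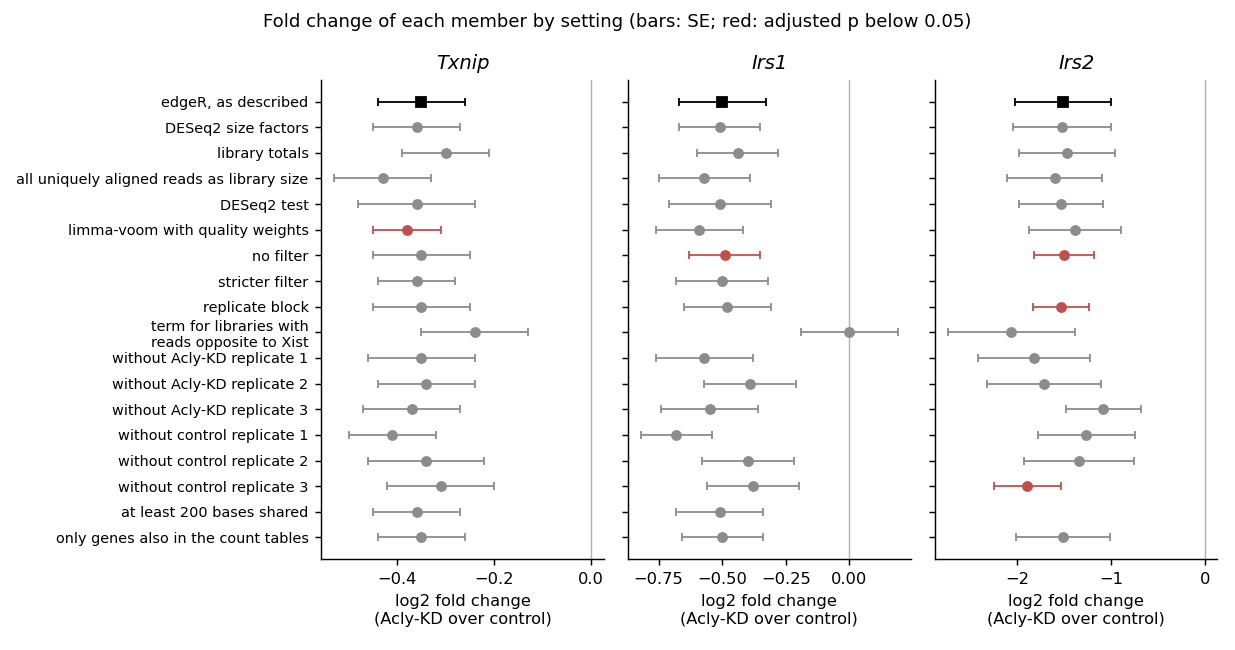
Log2 fold change (Acly-KD over control, bars SE) of Txnip, Irs1 and Irs2 in the reading of mRNA under each setting, with the reported fit as a black square and red for an adjusted p below 0.05. Values run from -0.43 to -0.24 for Txnip, -0.68 to 0.00 for Irs1 and -2.06 to -1.08 for Irs2; Irs2 is missing under settings that its reads or shared bases do not reach.

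Levels can be set side by side only per length of shared exon, on the assumption that all reads of a feature came from its shared bases. Txnip stood highest, with 37624 ± 890 CPM per kb in Acly-KD and 48110 ± 3356 CPM per kb in control (SD, n = 3 each). Irs1 had 418 ± 61.5 CPM per kb in Acly-KD and 586 ± 145 CPM per kb in control. Irs2 had 414 ± 210 CPM per kb in Acly-KD and 1190 ± 584 CPM per kb in control. Irs1 and Irs2 did not differ beyond their spread in Acly-KD, while Txnip was above both in every library. A read pair can reach past the 162 shared bases of Irs2, so its level per kb is the least certain of these.

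For the receptor and the kinases downstream the tables hold reads of the wrong strand at the gene itself, a poor stand-in for mRNA. Insr, the receptor, had 17, 3 and 28 reads in Acly-KD 1 to 3, against 3, 9 and 14 in control 1 to 3, and a log2 fold change of 0.74 (SE 0.57). This was 0.39 without Acly-KD replicate 3, 1.13 without control replicate 3 and 0.29 with limma-voom. Pik3r1, the regulatory subunit of phosphoinositide 3-kinase, had 1, 4 and 26 reads in Acly-KD 1 to 3, against 5, 12 and 12 in control 1 to 3. Its log2 fold change of -0.07 (SE 0.73) turned to 0.49 without Acly-KD replicate 1 and 0.11 without Acly-KD replicate 2. The groups overlapped for both genes, and in both Acly-KD 3 held the highest count.

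Akt2, the insulin-responsive form of the kinase, had 3, 1 and 9 reads in Acly-KD 1 to 3, against 1, 5 and 4 in control 1 to 3. Prkaa2, the AMPK subunit, had 1, 0 and 1 reads in Acly-KD 1 to 3, against 0, 1 and 5 in control 1 to 3. Tbc1d4, the Rab regulator, had 0, 3 and 6 reads in Acly-KD 1 to 3, against 6, 10 and 8 in control 1 to 3, and its groups did not overlap once scaled (up to 7.50 CPM in Acly-KD, from 11.5 CPM in control). The own row of Irs1 did not overlap either, at 6.14, 4.88 and 5.0 CPM in Acly-KD 1 to 3, against 7.28, 18.9 and 18.7 CPM in control 1 to 3. Groups did not overlap for 11.4% of the features tested as deposited. That share covers features that passed the filter on low counts and was not taken below it. The rows of Akt2, Prkaa2 and Tbc1d4, with the own rows of Irs1 and Irs2, fell below the filter. Two-sided exact permutation tests of their CPM gave p = 0.1 for Irs1 and Tbc1d4, the smallest that 3 libraries against 3 allow, p = 0.9 for Akt2 and Prkaa2, and p = 1.0 for Irs2. Wrong-strand reads per mRNA read, over 340 genes read both ways and divided by the gene's mean over all 6, had medians of 0.819, 0.868 and 1.11 in Acly-KD 1 to 3, against 1.04, 1.01 and 0.925 in control 1 to 3. The part of this ratio in the own-locus counts was not tested.

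**Figure D4:**
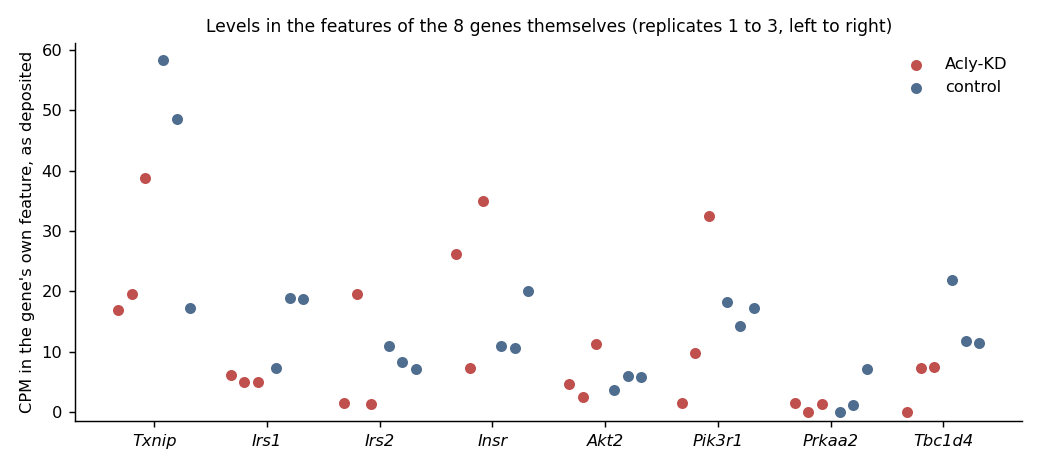
CPM counted in the feature of each of the 8 genes itself, as deposited, by library (Acly-KD replicates 1 to 3, then control replicates 1 to 3, left to right). All values are below 60 CPM, and Insr and Pik3r1 have their highest value in Acly-KD 3, at 35.0 and 32.5 CPM.

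The promoters of the 3 readable members are shown because Txnip is a textbook target of glucose-sensing factors, which bind a pair of E-box-like motifs set 5 bases apart, and because insulin signalling acts on genes through FoxO factors. The sequences are the 250 bases before the RefSeq start (build GRCm38.p6), at chr3:96557707-96557956 for Txnip (plus strand), chr1:82291440-82291689 for Irs1 and chr8:11008930-11009179 for Irs2 (minus strand). Capitals mark the E-box-like letters CACGNG and the FoxO core GTAAACA, on either strand.
Txnip: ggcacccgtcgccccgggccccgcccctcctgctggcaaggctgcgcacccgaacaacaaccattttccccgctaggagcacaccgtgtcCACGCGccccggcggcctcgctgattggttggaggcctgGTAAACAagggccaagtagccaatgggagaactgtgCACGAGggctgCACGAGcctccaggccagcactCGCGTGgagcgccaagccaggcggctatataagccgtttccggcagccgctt
Irs1: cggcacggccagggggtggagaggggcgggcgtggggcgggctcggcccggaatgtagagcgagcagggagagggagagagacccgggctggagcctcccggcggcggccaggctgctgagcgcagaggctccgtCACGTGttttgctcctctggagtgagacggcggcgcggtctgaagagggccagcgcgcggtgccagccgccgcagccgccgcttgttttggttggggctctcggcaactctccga
Irs2: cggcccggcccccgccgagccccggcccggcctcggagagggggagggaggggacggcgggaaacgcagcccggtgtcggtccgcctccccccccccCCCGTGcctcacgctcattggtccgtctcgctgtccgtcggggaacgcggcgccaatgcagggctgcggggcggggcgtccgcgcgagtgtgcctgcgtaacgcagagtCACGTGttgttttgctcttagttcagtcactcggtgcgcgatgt

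Txnip carries CACGAG at 85 and again at 74 bases before its start, which together fit the paired motif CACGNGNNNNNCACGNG. That motif is present, on either strand, in 15 of the 32851 promoter windows of the same length (0.0457%). Of the 8 genes 7 had a window in the table, 11 windows in all, and Txnip alone held the pair. Txnip also holds GTAAACA at 121 bases before its start, as do 3.17% of all windows. Irs1 and Irs2 each hold CACGTG, a form of CACGNG, at 115 and 44 bases before the start, as do 6.02% of windows, while the looser CACGNG is found in 23.5%. These are matches of letters, and no binding was measured.

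The other genes of the pathway were taken from 8 lists of 136 genes in all, of which 16 were tested in the reading of mRNA. Of these 16 genes 0 were called higher and 0 lower by edgeR, 0 had an unadjusted p under 0.05, and DESeq2 and limma-voom called 0. Below zero were 10 of 16, with a median log2 fold change of -0.10, against 49.5% below zero and a median of 0.01 over all 1453 genes. Groups did not overlap for 3 of 16, namely Prkag1 and Prdx2 with Acly-KD lower and Mlst8 with Acly-KD higher, against 14.7% of all genes.

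In the AMPK list (2 of 17 genes tested), Prkag1, the gamma subunit that senses AMP, read 3337, 3159 and 3190 CPM in Acly-KD 1 to 3, against 3585, 3636 and 3525 CPM in control 1 to 3. Every Acly-KD library was below every control, by a log2 fold change of -0.15 with a 95% interval of -0.38 to 0.08 (adjusted p = 0.734 in edgeR). Prkag2, the gamma isoform mutated in a human glycogen storage cardiomyopathy, had an interval of -0.44 to 0.75. In the thioredoxin list (1 of 17 tested), Prdx2, a peroxiredoxin that passes electrons from thioredoxin to peroxide, read 2047, 1860 and 2353 CPM in Acly-KD 1 to 3, against 2554, 2468 and 2399 CPM in control 1 to 3. Its log2 fold change was -0.24 (adjusted p = 0.581 in edgeR), with Acly-KD 3 close to control 3.

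Among glucose-sensing factors and partners (4 of 14 tested, 2 below zero), Mxd4, a Max partner, had a log2 fold change of 0.31 with an interval of -0.02 to 0.63. For Mxi1 the interval was -0.51 to 0.27 and for Usf2, an E-box binding factor, -0.75 to 0.24. In the list of AKT, mTOR and GSK3 (4 of 25 tested, 3 below zero), it was -0.30 to 0.20 for Gsk3a, a kinase that Akt inhibits, -0.46 to 0.12 for Ppp2ca, the catalytic subunit of a phosphatase that acts on Akt, and -0.13 to 0.78 for Mlst8, a subunit of the mTOR complexes. In the glucose uptake list (4 of 19 tested, 2 below zero), it was -1.04 to 0.32 for Slc2a1, the basal glucose transporter, -0.12 to 0.48 for Rab10, a substrate of Tbc1d4, and -0.25 to 0.33 for Rac1. Foxo1, the factor that Akt keeps out of the nucleus, was the 1 gene of 17 tested in its list, with an interval of -0.83 to 0.48. Intervals of most of these genes span changes as large as that of Txnip.

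**Figure D5:**
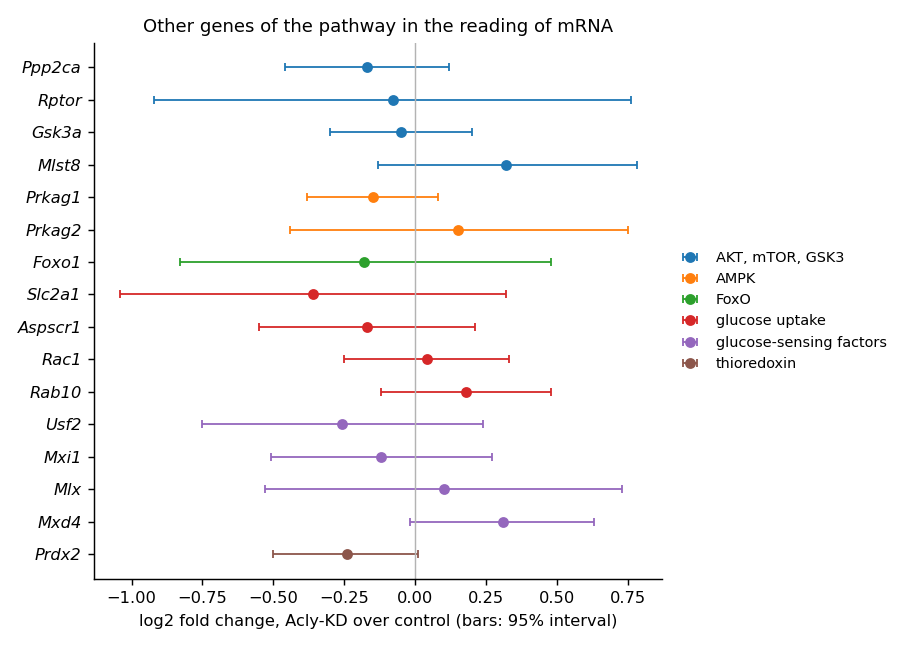
Log2 fold change (Acly-KD over control, bars 95% interval) of the 16 tested genes of the 8 lists in the reading of mRNA, coloured by list. All 16 intervals include zero, and 10 of the 16 values lie below it.

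The lists of receptor adaptors and of phosphoinositide 3-kinase had no gene in the reading of mRNA. As deposited, where counts are again of the wrong strand, 26 genes of the 8 lists were tested, 0 were called by edgeR, DESeq2 or limma-voom, and 2 had an unadjusted p under 0.05, as had 6.10% of all 2952 features tested, so that count is near the background. Neither gene passed the test. They were Gab1, a docking protein, with 29.8 ± 12.5 CPM in Acly-KD and 54.2 ± 0.801 CPM in control (SD, n = 3 each, adjusted p = 0.789 in edgeR), and Stk11, the LKB1 kinase that activates AMPK, with 36.1 ± 11.9 CPM in Acly-KD and 68.9 ± 5.14 CPM in control (adjusted p = 0.639 in edgeR). Stk11 was named after its values were seen. Both have exons opposite to another gene, Gm31105 and Cbarp. Grb14, an adaptor of the receptor, had a log2 fold change of -0.41, and Inppl1, a lipid phosphatase, and Pik3ip1, an inhibitor of the kinase, had 0.41 each, with groups that overlapped for these 3 genes.

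Among 1135 other genes with a mean of at least 50 CPM, those most like Txnip over the 6 libraries were Gm22100, Tor1aip1, Kcnj3, Adam15 and 4930481A15Rik, by root mean square differences of the centred log2 CPM of 0.0388, 0.0612, 0.0644, 0.0808 and 0.0874. Their log2 fold changes ran from -0.40 to -0.25, near that of Txnip because the genes were picked for likeness in these same libraries. For Irs1 they were Rab20, Utp14a and Sgsh, at 0.103, 0.123 and 0.136. Kcnj3, a potassium channel gene, is also on the list of atrial muscle markers. Of the 5 genes of that list 2 were tested in the reading of mRNA, and their log2 fold changes had opposite signs, -0.40 (SE 0.13) for Kcnj3 and 0.56 (SE 0.70) for Nppa, the atrial natriuretic peptide gene. Neither passed the test, and both together had sums of 4659 to 13086 CPM in Acly-KD and 3842 to 9701 CPM in control. At the own loci, summed over the whole list of 5 genes, levels were 36.8 to 63.5 CPM in Acly-KD and 70.5 to 80.1 CPM in control. These sums did not overlap, while Kcnj3 and Nppa, the 2 genes tested there, each did. Sln was listed at 0. The part of atrial cells in the values of Txnip was not tested.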

How the data were processed

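Poly-A RNA of perfused cardiomyocytes was sequenced with a strand-keeping kit, per the labels' protocols. The mm10 build and FastQC, TopHat2, SAMtools, HTSeq and DESeq2, with no versions, are named in the submitters' processing notes. The deposited values are raw counts per gene made by the authors, with no normalization, for 46078 features in 6 libraries, of which 45143 matched GENCODE M21. Rows that name no gene, 97.4% to 97.7% of a library's entries, stayed out of library sizes and tests.

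Libraries were grouped by title. Between libraries of a group the chi-square per degree of freedom was 4.37 to 13.4, so they differed by more than counting error. That alone does not tell whether they came from different animals. Reads opposite to Xist, 149 and 137 in control 2 and 3 and 0 in control 1, set control 1 apart from the other controls. In the reading of mRNA, a nuclear feature's counts went to the 1 gene that holds 80% or more of the exon overlap on the other strand, over 50 or more bases, where the count of that gene itself was smaller or missing. Each reading was fitted in edgeR 4.0.16 under R 4.3.3 (TMM, minimum count 10 in filterByExpr, robust quasi-likelihood, Benjamini-Hochberg at 0.05 over all features tested), after a check on simulated counts. CPM are TMM-normalized; fold changes are Acly-KD over control. Alternatives used DESeq2 1.42.0, limma 3.58.1 and the settings in the closing section.

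The members, lists and tests were chosen with earlier results of these data known. The genes named are the 8 members, their opposite features, in each list any gene passing, the 2 with the smallest p and the 2 most abundant (as deposited where none was tested as mRNA), and the 5 and 3 genes nearest to Txnip and Irs1. Of the genes so named, 1 is not reported here.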

Additional observations from a re-analysis of the deposited data

How the results depend on the processing

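As deposited, the number of member rows called was 0 under all 16 alternatives. In the reading of mRNA it was 0 under 14 of 18 alternatives. It was 1 (Txnip) with limma-voom, where 7 of all 1453 genes tested were called. With no filter on low counts it was 2 (Irs1 and Irs2), where 30 of 2765 genes were called. It was 1 (Irs2) with the replicate block, where 12 of 1453 genes were called. It ran from 0 to 1 with single libraries left out, the 1 being Irs2 without control replicate 3, where 2 of 1486 genes were called. With a term for control 2 and 3, which have reads opposite to Xist, the log2 fold change of Irs1 was 0.00. That of its opposite feature Gm9747 was 0.04, above zero, and those of Txnip and Irs2 were -0.24 and -2.06. The term leaves control 1 as the only control. Leaving out single libraries, log2 fold changes ran from -0.41 to -0.31 for Txnip, -0.68 to -0.38 for Irs1 and -1.89 to -1.08 for Irs2 in the reading of mRNA. For Pik3r1 as deposited they ran from -1.63 to 0.49, with 0.49 and 0.11 without Acly-KD replicates 1 and 2; the cause was not tested. Leaving out mitochondrial features changes nothing in the reading of mRNA, which holds none. Same-numbered libraries of both groups showed no shared deviation (correlations of -0.0195, -0.0184 and -0.0428). With 3 libraries per group this cannot tell whether they were prepared as pairs. Depth limits Irs2, with 11 to 95 reads per library, and all own-locus rows.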
